A study of Homo sapiens with 6 samples.

Results

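The genes described here encode the plasminogen activation system of the cell surface and the receptors and cofactors that read out extracellular proteases. They were chosen by name from the table of read counts: PLAU, PLAT, PLAUR, SERPINE2, SERPINB2, F3, THBD, F2R and F2RL1, which are 9 of its 21462 gene symbols. The libraries came from A431 cells, a human epidermoid carcinoma line with keratinocyte features, grown in DMEM with fetal bovine serum. The A431CT group is the control line, whose genotype the labels give as WT, and the Dsg2KO group is the line in which DSG2, encoding the desmosomal cadherin Desmoglein-2, was edited with CRISPR/Cas9. Each group held 3 libraries of polyA RNA, the labels name no treatment, and the comparison asks what differs in transcript levels between the knockout and the control line. The sources used here do not say whether the edited line is a single clone, and all Dsg2KO libraries came from it, so that loss of DSG2 and other differences acquired by that line cannot be told apart. The study's methods call the replicates biological, but neither they nor the labels tie each library to a culture of its own, and p-values then measure the spread between these libraries.

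Plasminogen circulates as an inactive precursor and is cut to plasmin, a broad protease that degrades fibrin and matrix and releases or activates other factors. Urokinase, the product of PLAU, does this at the surface of migrating epithelial cells when bound to its receptor, the product of PLAUR, and inhibitors of the serpin family trap it in inactive complexes. Protease-activated receptors are G protein-coupled receptors that are switched on when a protease cuts their extracellular end. The receptor encoded by F2R is the main thrombin receptor, and the one encoded by F2RL1 responds to trypsin-like enzymes and is known in the epidermis for its roles in barrier function, itch and inflammation.

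The libraries held between 12845719 and 16255692 counts, and levels are given as CPM, edgeR's library-scaled counts after TMM normalization. A floor of 3 counts, which covers counting error only, amounts to 0.184 CPM in the deepest library and to 0.236 CPM in the shallowest. DSG2 itself went from 323 ± 6.08 to 51.9 ± 2.88 CPM in the knockout (SD, n = 3 per group; adjusted p = 1.29e-14, edgeR), that is to 16.1% of the control level. The keratinocyte markers KRT5 and TP63 were at 630 and 210 CPM in A431CT cells, whereas KRT14, a defining keratin of basal keratinocytes, had at most 2 counts in any library. Of 8 keratinocyte markers 7 were tested, 2 rose and 3 fell, among them KRT6A (log2 fold change -1.03), and their summed level was between 2390 and 2500 CPM in A431CT and between 2280 and 2340 CPM in Dsg2KO libraries. Of the 6 fibroblast markers examined, none passed the filter on low counts, and COL1A2, PDGFRA, DCN, LUM and THY1 were at or under 3 counts in all libraries. The summed fibroblast list was at most 0.369 CPM in A431CT and 0.47 CPM in Dsg2KO libraries.

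Of the 9 genes, PLAU and PLAUR rose in Dsg2KO cells, F2R, F2RL1, THBD and SERPINB2 fell, and F3 and PLAT did not pass the test. SERPINE2, at or under 3 counts in all libraries, did not pass the filter on low counts and was not tested. A gene is said to rise or fall here with an adjusted p-value under 0.05 from edgeR's quasi-likelihood test (Benjamini-Hochberg over all 12857 genes tested), which 29.6% of the tested genes reached. Differences are log2 fold changes of Dsg2KO over A431CT, given ± their standard error (SE). When a size of 0.5 or more was required as well (the fold change minimum), 6.03% of the tested genes passed, 2.99% as higher and 3.03% as lower. By this stricter rule PLAU was higher and F2R, F2RL1 and SERPINB2 were lower, that is 4 of the 8 genes tested among the 9. PLAUR, at a log2 fold change of 0.49, and THBD, at -0.37, did not reach the fold change minimum. The libraries of the groups did not overlap for 6 of the 8 genes tested among the 9, against 42.6% of all tested genes. The median log2 fold change of the 8 tested genes was -0.19, and that of all tested genes was -0.0048. These are levels in bulk RNA, in which fewer cells expressing a gene and less RNA per cell cannot be told apart.

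**Figure D1:**
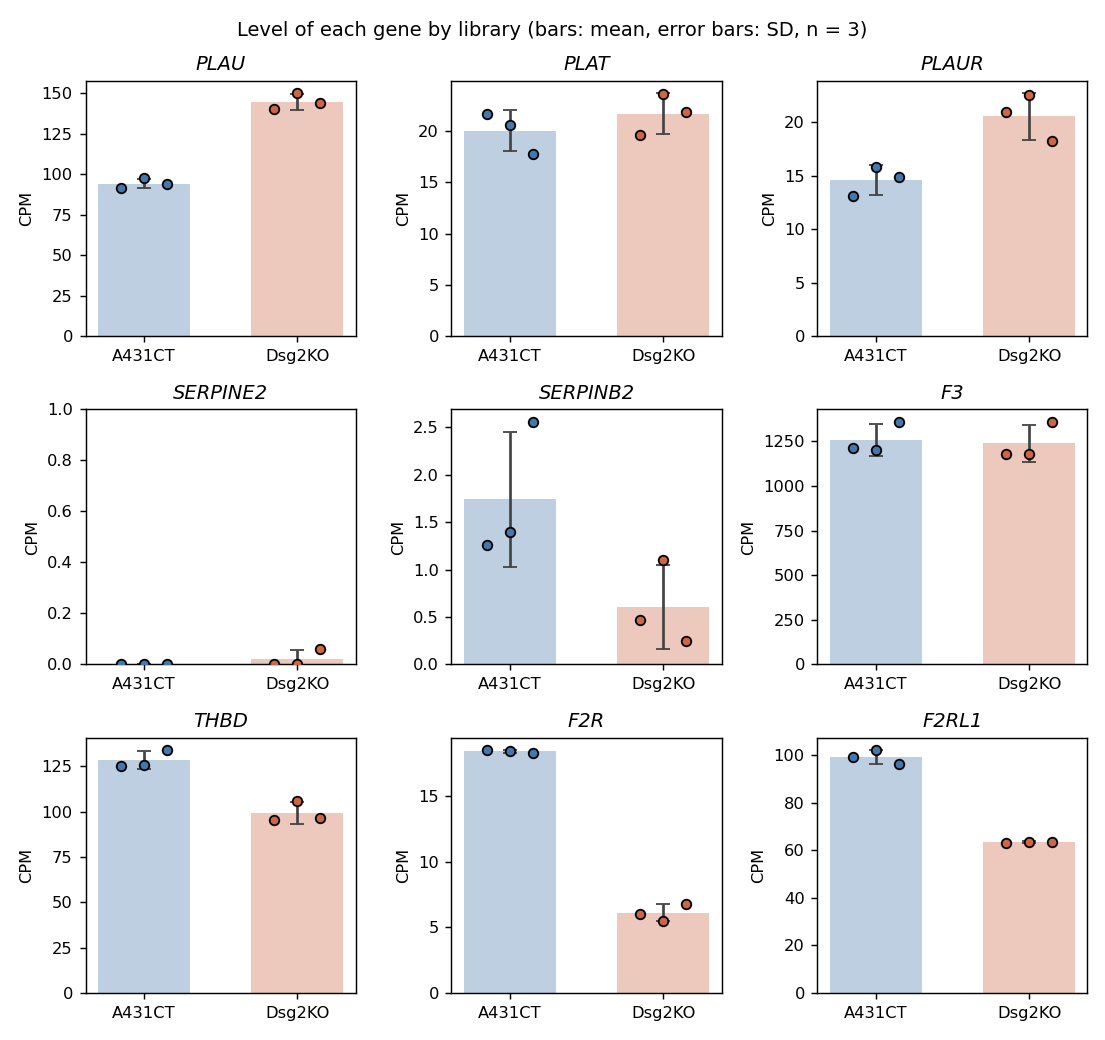
CPM of each of the 9 genes in the 3 A431CT and 3 Dsg2KO libraries, each panel with its own linear axis from 0; points are libraries, bars the mean and error bars the SD (n = 3). PLAU and PLAUR lie higher in all Dsg2KO libraries, F2R, F2RL1, THBD and SERPINB2 lie lower in all of them, F3 and PLAT overlap between the groups, and SERPINE2 is at or near 0.

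PLAU, the urokinase gene (ENSG00000122861.16, chromosome 10 of GRCh38 from 73909177 to 73917496, plus strand), was at 91.6, 97.3 and 93.6 CPM in the A431CT libraries and at 140, 150 and 144 CPM in the Dsg2KO libraries. All Dsg2KO libraries lay above all A431CT libraries, with a gap much wider than the spread within either group. The difference was 0.62 ± 0.04 (SE, adjusted p = 1.54e-07, edgeR), which is 1.54-fold with a 95% interval of 1.44 to 1.64. Exons of the long non-coding gene C10orf55 overlap those of PLAU on the opposite strand over 915 bases, and C10orf55 itself had between 1 and 20 counts per library. PLAT, the gene of tissue-type plasminogen activator (ENSG00000104368.19, chromosome 8, 42174718 to 42207709, minus strand), was at 21.7, 20.6 and 17.8 CPM in A431CT and at 19.6, 23.6 and 21.9 CPM in Dsg2KO cells. Its libraries overlapped between the groups. The difference of 0.12 ± 0.10 (SE) did not pass (adjusted p = 0.402, edgeR) and had a 95% interval of -0.09 to 0.33. Per length of all annotated exons PLAU exceeded PLAT 11.1, 12.5 and 13.9 times in A431CT and 18.8, 16.7 and 17.3 times in Dsg2KO cells, without overlap. The size of this ratio depends on the length used. Per length of a single canonical transcript it was 5.52, 6.18 and 6.89 in A431CT and 9.35, 8.3 and 8.59 in Dsg2KO cells, again without overlap.

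PLAUR encodes the urokinase receptor, a protein held in the membrane by a glycolipid anchor (ENSG00000011422.12, chromosome 19, 43646095 to 43670547, minus strand). It was at 13.1, 15.8 and 14.9 CPM in A431CT and at 20.9, 22.5 and 18.2 CPM in Dsg2KO cells, with all Dsg2KO libraries above all A431CT libraries. PLAUR rose by 0.49 ± 0.11 (SE, adjusted p = 0.00271, edgeR), and the 95% interval of this difference, 0.27 to 0.72, spans the fold change minimum of 0.5. It passed that minimum when A431CT replicate 2 (0.55), A431CT replicate 3 (0.51) or Dsg2KO replicate 3 (0.57) was left out, and its adjusted p-value stayed under 0.05 in each of the 13 alternatives run for it. The urokinase gene and its receptor gene thus both rose, and the ratio of their levels per length did not separate the groups. The log2 ratio of PLAU to PLAUR was 3.41, 3.22 and 3.25 in A431CT and 3.34, 3.33 and 3.58 in Dsg2KO cells. With the canonical transcript length it was 2.03, 1.85 and 1.88 in A431CT and 1.97, 1.96 and 2.21 in Dsg2KO cells.

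Of the inhibitors of plasminogen activators, SERPINB2 (PAI-2, which in keratinocytes is largely retained inside the cell; ENSG00000197632.9, chromosome 18, 63871692 to 63903888, plus strand) was counted only a few times. It had 16, 19 and 33 counts in A431CT and 7, 18 and 4 counts in Dsg2KO cells, which correspond to 1.26, 1.40 and 2.56 CPM and to 0.47, 1.10 and 0.247 CPM. The groups did not overlap in CPM, but Dsg2KO replicate 2 came close to the lowest control library. The difference was -1.50 ± 0.48 (SE, adjusted p = 0.0281, edgeR), with a wide 95% interval of -2.52 to -0.48. The call depended on single libraries: the adjusted p-value from edgeR was 0.15 without A431CT replicate 3 (difference -1.12), 0.106 without Dsg2KO replicate 1 (-1.35) and 0.12 without Dsg2KO replicate 3 (-1.12), whereas the difference was -2.26 without Dsg2KO replicate 2. An unnamed protein-coding gene of the annotation shares 547 exon bases with SERPINB2 on the same strand, so that its counts are uncertain in this respect as well. SERPINE2, the gene of protease nexin-1 (ENSG00000135919.14, chromosome 2, 223975045 to 224039318, minus strand), had no count in 5 of the 6 libraries and 1 count in Dsg2KO replicate 3, and no fold is given.

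F3 encodes tissue factor, the membrane protein that starts coagulation by binding factor VII (ENSG00000117525.14, chromosome 1, 94529173 to 94541759, minus strand). It was at 1210, 1200 and 1360 CPM in A431CT and at 1180, 1180 and 1360 CPM in Dsg2KO cells, and ranked 43 by mean CPM in the whole table. The groups overlapped almost entirely. The difference was -0.02 ± 0.05 (SE, adjusted p = 0.869, edgeR), and the 95% interval of the fold ran from 0.912 to 1.07. The sign of this small value changed under total-count scaling and when A431CT replicate 3, Dsg2KO replicate 1 or Dsg2KO replicate 2 was left out.

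THBD encodes thrombomodulin, which captures thrombin and turns it towards activating protein C (ENSG00000178726.7, chromosome 20, 23045633 to 23049672, minus strand). It was at 125, 126 and 134 CPM in A431CT and at 95.3, 106 and 96.6 CPM in Dsg2KO cells, with all Dsg2KO libraries below all A431CT libraries. THBD differed by -0.37 ± 0.05 (SE, adjusted p = 5.98e-05, edgeR), so that 77.4% of the A431CT level remained. PROCR, the endothelial protein C receptor that presents protein C to thrombomodulin, fell as well, at -0.24 ± 0.07 (SE, adjusted p = 0.0162, edgeR), but missed the threshold without A431CT replicate 2 (adjusted p = 0.0658), Dsg2KO replicate 2 (0.0617) or Dsg2KO replicate 3 (0.0571). TFPI, the inhibitor of the tissue factor complex, differed by -0.32 and did not pass (adjusted p = 0.0643, edgeR). It passed without Dsg2KO replicate 1 (-0.42, adjusted p = 0.0358, edgeR). The ratio of F3 to THBD per length was 13.6, 13.3 and 14.3 in A431CT and 17.4, 15.7 and 19.8 in Dsg2KO cells, without overlap. With the canonical transcript length it was 17.1, 16.7 and 17.9 in A431CT and 21.8, 19.7 and 24.8 in Dsg2KO cells, also without overlap.

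THBD, PROCR and F2R are also expressed by endothelial cells, and some endothelial markers differed between the groups. Of 6 such markers, CDH5 and PECAM1 rose (0.76 and 0.54), CLDN5 fell (-1.20), VWF did not pass, and KDR and TEK were at or under 3 counts in all libraries. PECAM1 missed the threshold when any library other than A431CT replicate 1 was left out (adjusted p between 0.0902 and 0.15, edgeR), and CLDN5 when any library other than Dsg2KO replicate 1 was left out (between 0.0799 and 0.154, edgeR). The summed level of these markers was between 9.69 and 12.8 CPM in A431CT and between 15.6 and 16.5 CPM in Dsg2KO cells. Of 6 leukocyte markers, CD68, a lysosomal protein that many other cells also make, fell (-0.62), LYZ did not pass, and PTPRC, CD14, CD3E and MS4A1 did not pass the filter on low counts. The summed leukocyte list was between 239 and 243 CPM in A431CT and between 153 and 165 CPM in Dsg2KO cells, and CD68 made up most of it. The part of these markers in the results was not tested.

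The largest falls among well-counted members were in the receptors. F2R, the thrombin receptor gene (ENSG00000181104.7, chromosome 5, 76716126 to 76735770, plus strand), was at 18.5, 18.4 and 18.3 CPM in A431CT and at 6.04, 5.51 and 6.80 CPM in Dsg2KO cells. The control libraries (235, 249 and 236 counts) were nearly identical, closer than counting error at such counts leads one to expect, so that their spread understates this error. Each Dsg2KO library lay far below them. F2R fell by 1.59 on the log2 scale (SE 0.12, adjusted p = 2.39e-07, edgeR), so that 33.3% of the control level remained, and the 95% interval of the fold ran from 0.279 to 0.397. F2RL1 (ENSG00000164251.5, chromosome 5, 76818933 to 76835315, plus strand) was at 99.2, 102 and 96.2 CPM in A431CT and at 62.9, 63.5 and 63.5 CPM in Dsg2KO cells, again without overlap. It fell by 0.65 (SE 0.05, adjusted p = 1.54e-07, edgeR), so that 63.9% of the control level remained. The other receptors of the family, F2RL2 and F2RL3, had 1 count each in A431CT replicate 1 and none in the other libraries.

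The 95% intervals of the differences, -1.84 to -1.33 for F2R and -0.75 to -0.55 for F2RL1, did not overlap. F2RL1 exceeded F2R per length 7.27, 7.53 and 7.13 times in A431CT and 14.1, 15.6 and 12.7 times in Dsg2KO cells, with no overlap. The mean log2 ratio was higher by 0.95 in Dsg2KO cells (exact permutation test over libraries, two-sided, p = 0.1, n = 3 per group, which is the smallest p that this design allows; 0.133 after Benjamini-Hochberg adjustment over 4 ratios, which were chosen after the values were seen). By the same permutation test, the ratios of PLAU to PLAT and of F3 to THBD gave the same p-values, and that of PLAU to PLAUR gave p = 0.3. Of the summed level of the family per length, F2R made up 12.1%, 11.7% and 12.3% in the A431CT libraries and 6.61%, 6.01% and 7.32% in the Dsg2KO libraries. Exons of unnamed long non-coding genes on the opposite strand share 39 bases with F2R and 304 bases with F2RL1, and the strand setting of the counting was not given in the sources used here.

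**Figure D2:**
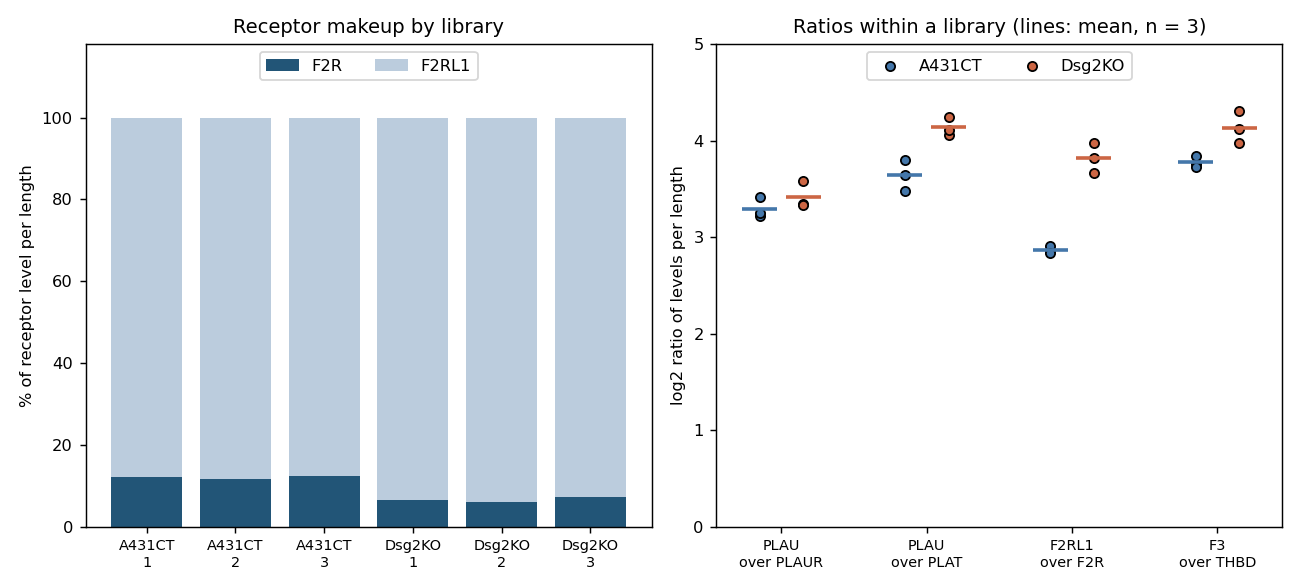
Left, F2R and F2RL1 as a percentage of the summed receptor level per length in each library; right, log2 ratios of levels per length for 4 pairs of genes, with points for libraries and lines for the mean (n = 3 per group). F2R takes between 6.01% and 7.32% in Dsg2KO and between 11.7% and 12.3% in A431CT libraries, while PLAU over PLAUR overlaps between the groups.

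F2R and F2RL1 lie side by side on chromosome 5, with 83.2 kb between them, and no other tested gene lies in that gap. The median over the 20 tested genes on each side of F2R was 0.03, and 18 of these 40 were below 0. Among these neighbours 1 was called lower by both thresholds, which was F2RL1 itself. The nearest tested genes beyond the pair, SV2C and AGGF1, differed by -0.22 (adjusted p = 0.00211, edgeR) and -0.04 (adjusted p = 0.616, edgeR). The medians around PLAU, PLAUR and SERPINB2 were -0.02, 0.01 and 0.01. They were 0.16 around F3, with 6 of 40 neighbours below 0, then 0.11 around PLAT and -0.08 around THBD, and the part of such regional shifts in the values of these genes was not tested. SERPINB2 lies in the cluster of clade B serpin genes on 18q21, 32.3 Mb from DSG2. In that cluster, of the 6 tested genes, SERPINB13 fell by 0.88 and SERPINB5 by 0.17 on the log2 scale beside SERPINB2, and SERPINB7, SERPINB8 and HMSD did not pass.

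Levels can be compared between genes only per length, and are given here as counts per kilobase of annotated exon, scaled to the same total in every library over the 19476 genes with a length. In A431CT cells F3 was at 1890 ± 145 (SD, n = 3) on this scale, followed by F2RL1 at 147 ± 4.25, PLAU at 139 ± 4.68 and THBD at 138 ± 5.76. The libraries of these last genes overlapped, so that their order is not resolved. F2R at 20.1 ± 0.0301, PLAUR at 14.2 ± 1.40, PLAT at 11.2 ± 1.10 and SERPINB2 at 2.76 ± 1.14 came next, without overlap between neighbours in this order. In Dsg2KO cells the order was different. PLAU, at 220 ± 6.04, stood alone below F3 at 1930 ± 173, and THBD at 110 ± 5.45 lay above F2RL1 at 96.8 ± 0.714. Below them PLAUR at 20.6 ± 2.07 and PLAT at 12.5 ± 1.10 had moved above F2R at 6.90 ± 0.778, and SERPINB2 was at 0.987 ± 0.715. With the length of a single canonical transcript in place of all exons, PLAU (102) stood above F2RL1 (88.3) and THBD (80.8), without overlap of their libraries, and F2R (12.6) below PLAUR (27.1) and PLAT (16.6) in A431CT cells already, so that the positions of PLAU and F2R relative to these genes depend on the length used.

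**Figure D3:**
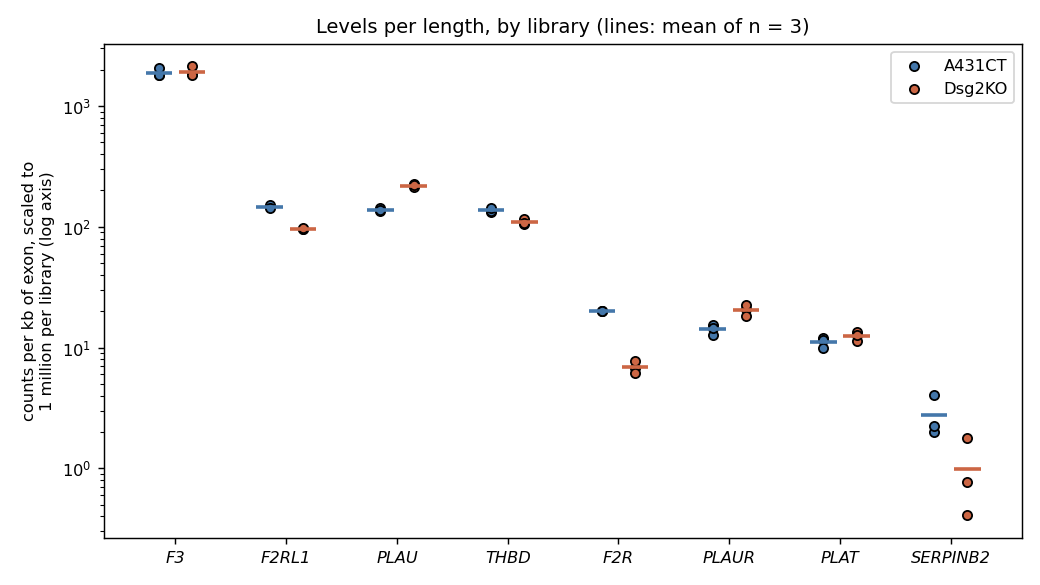
Levels per length (counts per kilobase of annotated exon, scaled to the same total per library, log axis) of 8 of the 9 genes in each library, with lines for the mean of 3 libraries per group; SERPINE2 is left out because it is at 0 in most libraries. F3 lies above all others in both groups, and on this exon length PLAU lies among F2RL1 and THBD in A431CT and above them in Dsg2KO cells.

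AP-1 is a family of transcription factors known to act on many promoters of protease and protease inhibitor genes, and the promoters of the genes were searched for its letters. RefSeq windows (GRCh38.p14) were found for 6 of the 9 genes. The 250 bases before the start annotated in RefSeq are printed from 5′ to 3′ on the strand of the gene. They are shown for PLAU and PLAUR, which rose, SERPINB2 and F2RL1, which fell, and F3, which did not pass the test. These starts can differ from the gene spans given above, which come from GENCODE. By those spans the windows of PLAU, PLAUR and SERPINB2 lie inside the gene, and that of F2RL1 runs past the gene start. Capitals mark the letters TGANTCA of AP-1, searched on both strands.
PLAU chr10:73910882-73911131 (+): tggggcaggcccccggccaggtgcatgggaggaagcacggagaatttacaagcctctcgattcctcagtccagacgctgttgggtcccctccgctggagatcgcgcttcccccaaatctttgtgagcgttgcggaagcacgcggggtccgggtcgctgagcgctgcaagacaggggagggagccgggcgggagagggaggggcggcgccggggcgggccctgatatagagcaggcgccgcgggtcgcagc
PLAUR chr19:43670170-43670419 (-): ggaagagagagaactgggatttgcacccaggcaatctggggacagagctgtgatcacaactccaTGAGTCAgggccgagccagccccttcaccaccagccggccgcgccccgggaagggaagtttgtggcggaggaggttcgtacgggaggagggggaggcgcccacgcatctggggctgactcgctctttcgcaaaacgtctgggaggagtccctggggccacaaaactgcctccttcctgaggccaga
SERPINB2 chr18:63887455-63887704 (+): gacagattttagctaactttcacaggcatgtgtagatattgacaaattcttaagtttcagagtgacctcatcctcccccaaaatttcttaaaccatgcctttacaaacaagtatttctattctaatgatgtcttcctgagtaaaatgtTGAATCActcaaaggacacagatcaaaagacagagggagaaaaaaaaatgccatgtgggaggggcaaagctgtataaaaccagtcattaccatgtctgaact
F2RL1 chr5:76818780-76819029 (+): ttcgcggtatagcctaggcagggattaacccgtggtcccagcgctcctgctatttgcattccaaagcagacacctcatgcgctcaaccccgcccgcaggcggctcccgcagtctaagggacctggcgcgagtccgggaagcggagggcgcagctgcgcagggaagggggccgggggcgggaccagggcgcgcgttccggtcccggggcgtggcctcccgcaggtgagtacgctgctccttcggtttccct
F3 chr1:94541760-94542009 (-): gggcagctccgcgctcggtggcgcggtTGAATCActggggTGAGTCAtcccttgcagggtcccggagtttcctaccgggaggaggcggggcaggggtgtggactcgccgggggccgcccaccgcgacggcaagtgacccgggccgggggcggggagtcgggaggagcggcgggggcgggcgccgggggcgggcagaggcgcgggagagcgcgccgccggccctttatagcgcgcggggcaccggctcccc
The AP-1 letters occurred in the windows of PLAUR (186 to 180 bases before the start), SERPINB2 (102 to 96) and F3 (223 to 217 and 210 to 204), and in 6.57% of 35116 windows of this length. They were not found in the windows of F2RL1, nor in either window of PLAU, of which the downstream one is shown. The genes with these letters included 1 that rose, 1 that fell and 1 that did not pass. The kappa B letters (GGG, any 2 bases, TT, any base, CC) were searched on both strands and were held by 5.07% of all windows. They were found in none of the 8 windows, which belong to 6 of the 9 genes. PLAT, THBD and F2R had no window and were not searched. This says only that these letters are absent from these windows.

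Beyond the 9 genes, lists of the other genes of the pathway, and the serpin cluster listed by position, were examined in the same fit. Of these genes together 61 were tested. Of the 61, 24 rose or fell, where 29.6% of all tested genes did. Of the same 61, 6 also passed the fold change minimum, where 6.03% of all tested genes did. SERPINB13, among these 6, came from the serpin cluster only. Transcripts of the circulating substrates and factors were at or near 0 in these libraries: PLG (plasminogen), F7 and F5 had no count in any library, F2 (prothrombin) had at most 1 count, and F10 had 1 count in each A431CT library and 4 or 5 in each Dsg2KO library. Of 16 coagulation factors and anticoagulants, 8 were tested, PROCR fell and the other 7 did not pass, and the median difference was -0.10. TFPI2 had no count. Of 10 further serpins and related inhibitors, 5 were tested. SERPINF2, the gene of the plasmin inhibitor alpha-2-antiplasmin, rose (0.64), SERPINB6 fell (-0.14, adjusted p = 0.0478, edgeR), and the median was -0.12. SERPINF2 was low, at 3.55 ± 0.118 CPM in A431CT and 5.52 ± 0.741 CPM in Dsg2KO cells (SD, n = 3). Its adjusted p-value (edgeR) went from 0.0218 to 0.0538 without A431CT replicate 3, 0.0983 without Dsg2KO replicate 1 and 0.0592 without Dsg2KO replicate 2.

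Of 7 genes for plasminogen and its surface binders, 6 were tested, and the median was -0.14. KRT8 rose (0.31), ANXA2, ENO1 and HMGB1 fell (-0.17, -0.26 and -0.28), and PLGRKT and S100A10, which forms a plasminogen-binding complex with the product of ANXA2, did not pass. None of them reached the fold change minimum. Of 12 clearance and partner receptors, 7 were tested, with a median of 0.11. ITGB5, an integrin subunit of a vitronectin receptor, rose from 80.9 ± 2.35 to 126 ± 2.39 CPM (SD, n = 3), a difference of 0.64 ± 0.04 (SE, adjusted p = 1.04e-07, edgeR). ITGA5, ITGB1 and EGFR rose by less (0.27, 0.13 and 0.11), ITGAV and IGF2R fell (-0.17 and -0.26), and LRP1, which clears complexes of urokinase with its inhibitors, differed by -0.06 (adjusted p = 0.656, edgeR) with a 95% interval of -0.23 to 0.12.

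Some surface serine proteases and kallikreins are known to cut the product of F2RL1. Of 19 genes listed by these protease classes, and not by what they cut, 11 were tested, and the median was 0.05. PRSS23 and PRSS22 rose (0.58 and 0.34), the latter at an adjusted p of 0.046 (edgeR) and with libraries that overlapped. ST14, the gene of matriptase, was at 222 ± 11.7 CPM in A431CT and 211 ± 0.942 CPM in Dsg2KO cells (SD, n = 3), a difference of -0.08 (adjusted p = 0.209, edgeR) with a 95% interval of -0.17 to 0.02. KLK5, KLK6, KLK7, KLK8 and KLK10 did not pass. Of 8 secreted or membrane protease inhibitors outside the serpin family, 5 were tested, with a median of -0.03. SPINT1, the inhibitor of matriptase, rose (0.18), and WFDC2 and SPOCK1 fell (-0.52 and -1.41), SPOCK1 from at most 39 counts per library. WFDC2 lay under the fold change minimum without A431CT replicate 2 (-0.44) or Dsg2KO replicate 3 (-0.40), and SPOCK1 missed the threshold without A431CT replicate 3 (adjusted p = 0.0777, edgeR) or Dsg2KO replicate 2 (0.059). Of 20 genes for the rest of the receptor family and its G proteins, phospholipases, exchange factors, kinases and arrestins, 15 were tested, with a median of 0.10, and none reached the fold change minimum. PLCB3 and ARHGEF12 rose (0.22 and 0.16), and ARHGEF1 and GRK6 fell (-0.19 and -0.16).

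**Figure D4:**
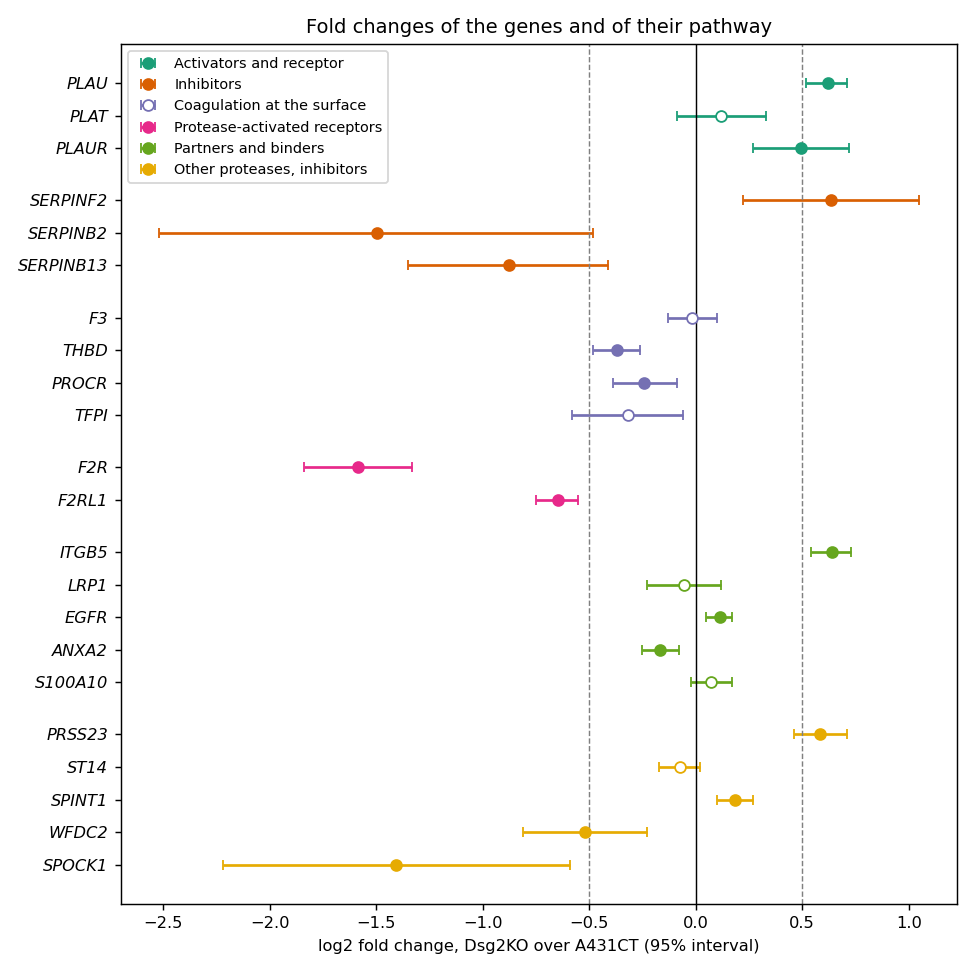
Log2 fold change of Dsg2KO over A431CT with its 95% interval for 8 of the 9 genes and 14 other genes of the lists, in groups. SERPINB13, placed among the inhibitors, comes from the serpin cluster listed by position. Filled points have an adjusted p-value under 0.05 (edgeR) and dashed lines mark the fold change minimum of 0.5. PLAU, SERPINF2, ITGB5 and PRSS23 lie above 0.5, and F2R, F2RL1, SERPINB2, SERPINB13, WFDC2 and SPOCK1 lie below -0.5.

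The filter, scaling, tool and libraries were varied in 13 further fits. In these the log2 fold change stayed between 0.60 and 0.64 for PLAU, between -1.67 and -1.51 for F2R, between -0.67 and -0.62 for F2RL1 and between -0.42 and -0.34 for THBD, with an adjusted p-value under 0.05 in each fit. It ran from 0.42 to 0.57 for PLAUR, from 0.04 to 0.19 for PLAT, from -2.26 to -1.12 for SERPINB2, which could be tested in 12 of them, and from -0.09 to 0.05 for F3, whose sign changed.

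**Figure D5:**
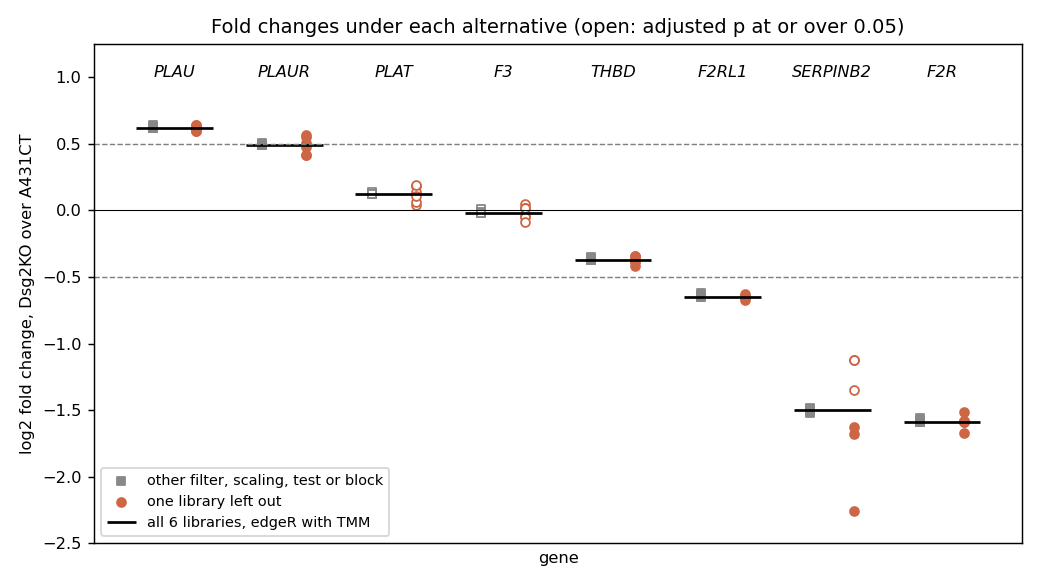
Log2 fold change of 8 of the 9 genes with all 6 libraries (black line), under other filters, scalings, tests and a replicate block (grey squares) and with 1 library left out (orange circles); open symbols have an adjusted p-value of 0.05 or more and dashed lines mark the fold change minimum of 0.5. SERPINB2 spreads from -2.26 to -1.12 and loses the threshold in 3 of the fits, PLAUR straddles 0.5, and PLAU, F2R, F2RL1 and THBD move little.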

How the data were processed

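RNA from A431CT and Dsg2KO cells (3 libraries each) was prepared with the NEBNext Ultra kit and sequenced with paired ends. The authors trimmed the reads, aligned them to GRCh38/hg38 and obtained gene-level values with CLC Genomics Workbench version 23, and the deposited table holds raw counts without normalization. The gene annotation, strand setting and treatment of multi-mapping reads are not given in the sources used here. Each of the 6 count columns was matched to a sample by its library name.

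Counts were analysed in R 4.3.3 with edgeR 4.0.16 (TMM factors, filterByExpr with a minimum count of 10 and a minimum total of 15, quasi-likelihood F test, no covariates, Benjamini-Hochberg adjustment over 12857 genes). This stands in for the test built into CLC. Calls required adjusted p-values under 0.05 and, for the stricter rule, a log2 fold change of 0.5 or more in size. Standard errors were derived from the fold change and its F statistic. Members and lists were chosen with earlier results of these data known. The genes named were the 9 members, DSG2, TFPI, TFPI2, PROCR, ST14, SPINT1, F2RL2, F2RL3, ANXA2, S100A10, LRP1, EGFR and list genes past both thresholds; other list genes were named after their values were seen. A further gene of the lists is not reported here. Positions, overlaps and lengths came from GENCODE version 44, which matched 19476 of 21462 symbols. Of each RefSeq promoter window only the 250 bases before the start were used. Alternatives were other filters, RLE or total-count scaling, DESeq2 1.42.0, edgeR's likelihood ratio test, a replicate block, each library left out, and other fold change minimums. The fit was tested on simulated data. Replicate pairs differed by more than counting error (chi-square per degree of freedom between 2.64 and 4.12). Python 3.11.15 and matplotlib 3.10.9 were used for summaries and figures.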

Additional observations from a re-analysis of the deposited data

How the results depend on the processing

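With a fold change minimum of 1 on the log2 scale, 2 of the 9 genes (F2R and SERPINB2) passed in place of 4, and 0 of them as higher in place of 1. The number of members higher past both thresholds was 2, with PLAUR added to PLAU, without a low-count filter, under total-count scaling and without a fold change minimum, and between 1 and 2 with 1 library left out. Over all genes, 775 passed (385 higher and 390 lower), 3802 without a minimum (1835 and 1967) and 250 with a minimum of 1 (137 and 113). For the pathway lists and the serpin cluster together the number was 6 (3 higher and 3 lower), 24 without a minimum (11 and 13) and 1 with a minimum of 1 (0 higher and 1 lower). The minimum by its construction sets these numbers. F3 had a log2 fold change of 0.01 under total-count scaling, and of 0.05, 0.02 and 0.02 without A431CT replicate 3, Dsg2KO replicate 1 and Dsg2KO replicate 2 (range with 1 library left out -0.09 to 0.05). LRP1 was at 0.04 without A431CT replicate 1 (range -0.11 to 0.04). With at least 10 counts required in every library SERPINB2 was not tested. Same-numbered libraries had correlations of their deviations of -0.0027, 0.0135 and 0.0539, and differently numbered ones between -0.0415 and 0.0281. No clear pairing by replicate number was thus seen, which does not show that the libraries were prepared without pairing. A replicate block left the calls of the 9 genes at 4 and gave 769 genes in all, 747 of them shared, and took the adjusted p-value of TFPI (edgeR) to 0.0314. DESeq2 called 682 genes, and the same 4 members. SERPINB2 had at most 33 counts per library, which leaves a wide interval, and for SERPINE2 and the other genes at or under 3 counts no difference could be measured at this depth.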
